A study of Mus musculus with 2 samples.

Results

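The genes described here are type I interferon response genes, a module of 43 gene symbols chosen by name and not by their values, of which 42 were listed among the 32285 genes of the count matrices. The data were single-cell RNA sequencing (scRNAseq) counts from popliteal lymph nodes (PLNs), the nodes behind the knee that drain the hindlimb joints, of male TNF-Tg mice on the C57BL/6 background. TNF-Tg mice carry a human TNF transgene and develop inflammatory-erosive arthritis, and both groups carried it. Early mice were 5 to 6 months of age with mild joint disease and Advanced mice were over 8 months of age. Each group was 1 library made from 6 PLNs of 3 pooled mice, sorted for live nucleated cells (Hoechst positive, Sytox Green negative) after Evans blue had been injected into the hindpaw to find the nodes. There was no replicate of either library, so age, stage of disease and library cannot be told apart, and no test between the groups was possible. Values are unique molecular identifiers (UMIs, which count captured transcripts) per 1000000 UMIs of the cells summed (CPM), with exact 95% intervals that cover counting error only and not the differences between mice or libraries.

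Type I interferons are cytokines that nearly every cell can sense. They bind the receptor pair Ifnar1 and Ifnar2, whose kinases Jak1 and Tyk2 activate transcription factors that include Stat2. Stat2 joins Irf9 in a complex that enters the nucleus and binds a GAAA-repeat element, the interferon-stimulated response element, at the promoters of many genes whose products sense or restrict viruses. In lymph nodes, plasmacytoid dendritic cells are known as strong producers of type I interferon, and a low tonic response is present in many resting lymphocytes. Many response genes also answer to type II interferon (Ifng), which binds a separate receptor.

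Promoter windows of 8 members described below are shown first, chosen among those that hold the letters of the response element. The search was for the letters GAAA, any 2 bases and GAAA again, on either strand, in the 300 bases from 250 before to 50 after each transcription start of the RefSeq promoter table (build GRCm38.p6). Of the 33 members in that table, 18 held the motif (54.5%), 16 of them with a match before the start and 6 with 2 or more matches. The share was 3.99% of all 27025 genes listed and 3.44% of their 32851 promoters. Windows below run 5′ to 3′ on the gene's strand, with each match in capitals. A match written TTTC is the motif on the other strand, overlapping matches form 1 longer run, and a match is a description of the letters and not of a bound site.
Ifit1, chr19:34640770-34640828, plus strand: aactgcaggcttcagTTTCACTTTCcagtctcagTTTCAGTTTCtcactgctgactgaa
Ifit3, chr19:34583392-34583431, plus strand: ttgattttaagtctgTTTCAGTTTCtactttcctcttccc
Rsad2, chr12:26456548-26456587, minus strand: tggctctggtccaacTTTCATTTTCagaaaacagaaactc
Isg15, chr4:156200860-156200911, minus strand: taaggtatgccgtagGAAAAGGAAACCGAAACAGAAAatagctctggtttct
Oas3, chr5:120777710-120777749, minus strand: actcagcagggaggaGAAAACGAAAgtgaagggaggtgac
Bst2, chr8:71537572-71537617, minus strand: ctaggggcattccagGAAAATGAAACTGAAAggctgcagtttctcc
Ifi206, chr1:173491334-173491373, minus strand: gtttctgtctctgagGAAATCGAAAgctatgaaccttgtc
Ifi213, chr1:173599321-173599360, minus strand: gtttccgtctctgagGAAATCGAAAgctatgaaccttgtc
In Isg15 the 3 overlapping matches lay 78 to 57 bases before the start, and in Ifit1 the 2 matches spanned 104 to 76 bases before it. The Ifi206 and Ifi213 windows, from neighbouring paralogs, were nearly the same sequence. Several members were tandem copies: the 4 IFIT genes lay within chr19:34550694-34650009, the 6 PYHIN genes (Ifi204 to Ifi214) within chr1:173468485-173766943 and the 4 Schlafen genes within chr11:82951349-83122670 (GRCm38). Reads that fit copies equally well may be dropped or split between them, so the split among Ifit3 and Ifit3b, among the PYHIN genes and among the Schlafen genes is uncertain. Ifi47 and Irf9 overlap another coding gene on the same strand, Olfr56 and Rnf31, and 3 members overlap one on the opposite strand.

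Cells were sorted into gates by raw UMIs of lineage genes, with no clustering. Of 8221 Early and 8183 Advanced cells with at least 200 genes, the B cell gate held 7542 and 5777, the T cell gate 155 and 1087, the monocyte gate 107 and 187, the dendritic cell gate 54 and 97, and the plasmacytoid gate 34 and 37. A gate refused cells with UMIs of other lineages, and 234 Early and 667 Advanced cells were left ungated, 38 and 219 of them with both B and T cell genes. Of 18 marker genes that the gates did not use, 15 in Early and 16 in Advanced were highest in their own gate. RNA of other cells was present in every gate: the B cell gene Cd79b stood at 1398 CPM in Early and 1402 CPM in Advanced B cells, and at 36.2 and 58.4 CPM in T cells, which was 2.59% and 4.17% of the B cell level. The Early plasmacytoid gate also held Gzma, a cytotoxic granule gene, at 534 CPM, all of it in 1 of 34 cells (2.94%), against 6.8 CPM in the Advanced gate, and the part of this in the results on those cells was not tested. The libraries shared 20 cell barcodes.

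Of the 5 gates, plasmacytoid cells had the highest summed level of the 42 genes, with 6101 CPM (5883 to 6324) in Early and 5457 CPM (5270 to 5648) in Advanced PLNs. T cells and monocytes followed. T cells had 2138 CPM (2078 to 2200) and 1831 CPM (1808 to 1855), and monocytes 2476 CPM (2391 to 2563) and 1930 CPM (1869 to 1991). Monocytes were above T cells in both libraries. Dendritic cells had 1413 CPM (1341 to 1487) and 1244 CPM (1195 to 1294), and B cells 1256 CPM (1247 to 1265) and 1309 CPM (1299 to 1319). Dendritic cells were thus above B cells in Early and below them in Advanced PLNs, and without the highest 1% of cells in each gate they were below them in both, at 1045 and 1029 CPM against 1191 and 1235 CPM. Outside these 5 gates, lymphoid precursors (58 and 279 cells) had 2779 and 2090 CPM, above T cells and monocytes, and plasma cells (33 and 38 cells) 510 and 693 CPM. Of the precursors, 30 and 88 carried plasmacytoid genes. With Bst2 left out precursors had 1013 and 975 CPM, below T cells (2062 and 1754 CPM) and B cells (1225 and 1271 CPM). Without the highest 1%, T cells had 2054 and 1750 CPM, monocytes 2064 and 1818 CPM, and plasmacytoid cells 5821 and 5254 CPM.

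**Figure D1:**
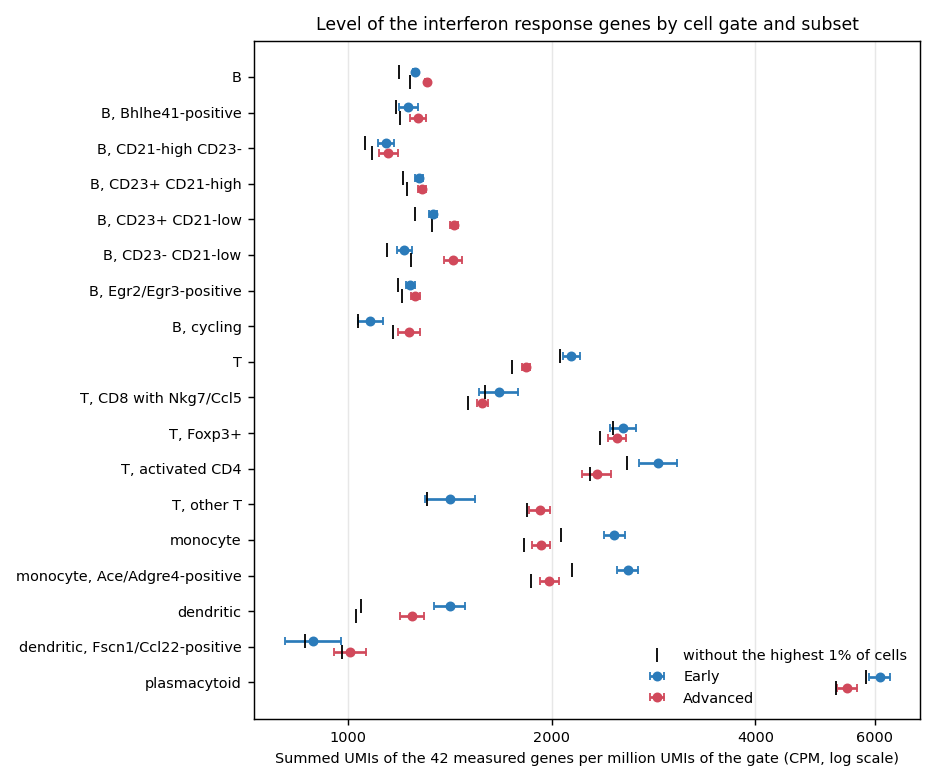
Summed level of the 42 type I interferon response genes (CPM, horizontal log axis) in each gate and subset with at least 20 cells in both libraries, Early and Advanced side by side, with 95% counting intervals. Black ticks give the level without the highest 1% of cells. Plasmacytoid cells stand apart at 6101 and 5457 CPM, and Early monocytes go from 2476 to 2064 CPM without the highest 1%.

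Different genes made up this level in different cells. In plasmacytoid cells Bst2, which encodes tetherin, a membrane protein that holds budding virus on the cell and is itself a plasmacytoid surface marker in mice, gave 60.2% of the Early and 63.4% of the Advanced sum, at 3670 and 3460 CPM. Without Bst2 these cells had 2431 and 1997 CPM, and monocytes, with Bst2 left out as well, had 2431 and 1880 CPM. Ifi27l2a, which encodes a small interferon-induced protein, came next in plasmacytoid cells at 720 and 819 CPM, then Trim30a, a ubiquitin ligase that dampens innate signalling, at 239 and 188 CPM. Irf7, the transcription factor through which these cells make interferon, stood at 179 and 172 CPM.

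In B cells the 4 most abundant members were Ifi27l2a (259 and 276 CPM), Slfn2, a Schlafen gene linked to lymphocyte quiescence (172 and 175 CPM), Samhd1, a phosphohydrolase that depletes nucleotides (139 and 143 CPM) and Ifi209, a PYHIN gene of the family that binds DNA (139 and 129 CPM). T cells were led by the first 3 of these, with Ifi27l2a at 924 and 404 CPM, Slfn2 at 280 and 289 CPM and Samhd1 at 158 and 154 CPM, followed by Ifi47, a GTPase, at 84.6 and 103 CPM. Monocytes were led by Samhd1 at 528 and 464 CPM, ahead of Ifi27l2a (456 and 297 CPM), Slfn2 (371 and 301 CPM) and Parp14, an ADP-ribosyltransferase (75.8 and 79.2 CPM). Ifi204, a PYHIN gene at 85.8 and 62.3 CPM in monocytes, was close to absent from B cells at 0.16 and 0.14 CPM. The PYHIN genes split by lineage: Ifi208 stood at 36.3 and 34.4 CPM in B cells and 31.7 and 51.4 CPM in T cells, but at 0.77 and 1.00 CPM in monocytes, which was 2.13% and 2.90% of the B cell level and lay below the share that Cd79b had there (3.82% and 5.26%). Dendritic cells were led by Bst2 (189 and 245 CPM), Samhd1 (194 and 239 CPM), Slfn2 (129 and 114 CPM) and Slfn5 (136 and 87.0 CPM).

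**Figure D2:**
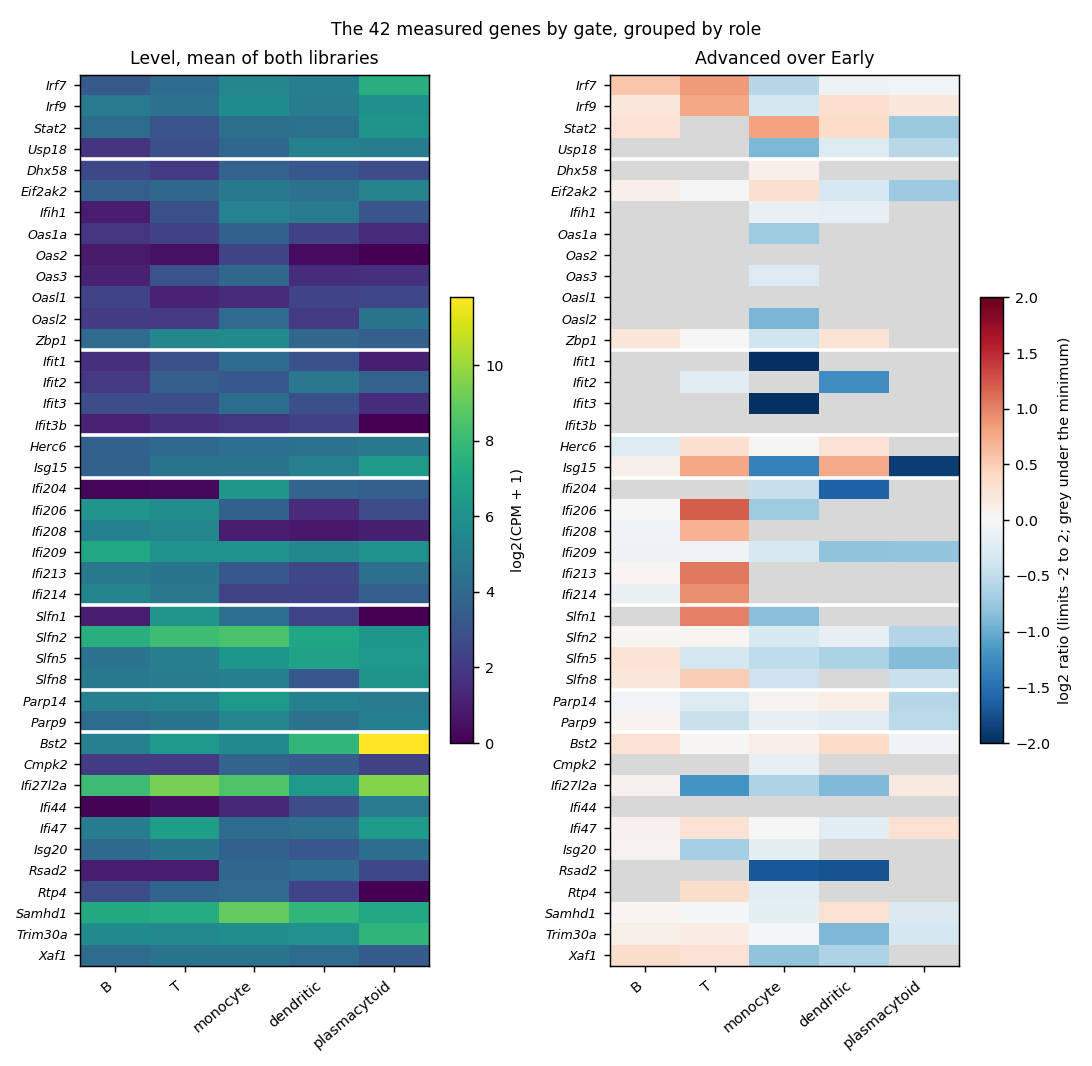
Heat maps of the 42 genes (vertical axis) by gate (horizontal axis). The first shows log2(CPM + 1) of the mean of both libraries and the second the log2 ratio of Advanced to Early, grey where a gene was under the minimum of 10 CPM in 1 library and 30 UMIs in all. Bst2 in plasmacytoid cells and Ifi204 in monocytes stand out in the first, and the second is near 0 for B cells.

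Within B cells the level varied little between subsets. The highest in Early PLNs was the CD23+ CD21-low subset (Fcer2a present, Cr2 low) with 1334 CPM (1315 to 1352) and the lowest the cycling subset with 1079 CPM (1034 to 1126). CD21-high CD23- cells stood at 1139 and 1147 CPM in Early and Advanced PLNs, CD23+ CD21-high cells at 1274 and 1286 CPM, cells with Egr2 or Egr3 at 1237 and 1258 CPM, and cells with Bhlhe41 at 1228 and 1269 CPM. In Advanced PLNs the intervals of the last 3 overlapped. Within T cells the spread was wider: in Early PLNs activated CD4 cells (Pdcd1, Icos, Izumo1r or Tnfrsf4) had 2870 CPM (2690 to 3059) from 22 cells, Foxp3+ regulatory cells 2552 CPM (2442 to 2665) from 59 cells and CD8 cells with Nkg7 or Ccl5 1672 CPM (1564 to 1784) from 32 cells. In Advanced PLNs Foxp3+ cells were highest at 2497 CPM (2419 to 2576), activated CD4 cells had 2332 CPM (2221 to 2447) and CD8 cells with Nkg7 or Ccl5 were lowest at 1579 CPM (1550 to 1609). In both libraries most of the gap between activated CD4 or Foxp3+ cells and these CD8 cells lay in Ifi27l2a, whose levels by subset are given below. Dendritic cells with Xcr1 or Clec9a, the cross-presenting type, had 1893 and 1771 CPM from 13 and 18 cells, but 1 cell in each library held 54.3% and 48.7% of that sum. Without it they had 926 and 971 CPM, close to the dendritic cells with Fscn1 or Ccl22, the migratory type, at 888 and 1009 CPM.

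The average hid a small number of cells with a very high response. Every cell was thinned at random to 2000 UMIs so that depth could not set its count, which left out 29 Early and 45 Advanced B cells that had fewer. A thinned B cell then carried 2.51 module UMIs in Early and 2.65 in Advanced PLNs on average, with a median of 2 in both, and 13.9% and 14.2% of cells carried 0. Cells with 10 or more were 1.74% of Early B cells (1.46 to 2.07) and 2.48% of Advanced B cells (2.09 to 2.91). The highest carried 42 and 58. The variance over the mean, which is 1 for counts that scatter by chance around 1 shared level, was 2.50 and 3.54, and without the highest 1% of cells 1.62 and 1.86. With all cells it was largest in Advanced CD23- CD21-low B cells, at 7.44 against 3.37 in Early cells of the same subset. Without the highest 1% these were 2.42 and 1.92. Early and Advanced CD23+ CD21-low cells had 2.58 and 4.46, and 1.59 and 2.03 without the highest 1%.

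**Figure D3:**
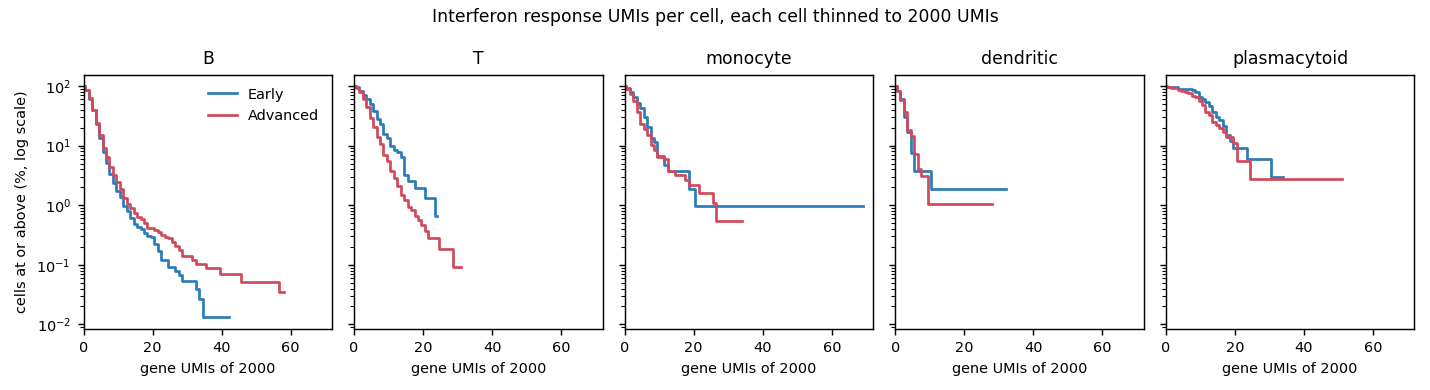
Share of cells (percent, log axis) at or above each number of module UMIs among 2000, in 5 panels, 1 for each gate, with a line for Early and one for Advanced. The B cell lines part in the tail, with 1.74% and 2.48% of cells at 10 or more, and the Early monocyte line ends in a long step made by 1 cell with 69.

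T cells carried more module UMIs at the same depth, 5.31 in Early and 3.80 in Advanced PLNs of 2000, and 13.6% and 5.56% of them carried 10 or more. Their variance over the mean was 3.48 and 2.75. Plasmacytoid cells were shifted as a whole: 66.7% and 55.6% carried 10 or more, with a mean of 12.8 and 11.4. Bst2 alone gave 60.2% and 63.4% of the summed level of these cells. Without Bst2 that level was 2431 and 1997 CPM, against 2062 and 1754 CPM in T cells. In monocytes and dendritic cells single cells set the spread. The 2 highest Early monocytes held 18.3% of all module UMIs of their gate, against 6.71% for the 2 highest Advanced monocytes, and the Early variance over the mean was 10.5 with them and 2.59 without the highest 1%. The highest dendritic cell held 27.9% in Early and 18.7% in Advanced PLNs. In B cells the highest 1% (76 and 58 cells) held 6.08% and 6.42%.

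The 4 IFIT genes, which encode proteins that bind foreign RNA and are close to silent without interferon, showed the tail most plainly. All B cells together held 597 IFIT UMIs in Early and 706 in Advanced PLNs, 10.4 and 14.0 CPM, a ratio of 1.35 (1.21 to 1.51). Of these, 51.4% and 52.7% lay in 29 and 28 cells with 5 or more each. B cells with 2 or more IFIT UMIs were 0.89% (0.69 to 1.13) of Early and 1.54% (1.24 to 1.89) of Advanced B cells, at median depths of 6576 and 7418 UMIs per cell. The same share was 5.81% (2.69 to 10.7) and 5.52% (4.24 to 7.05) in T cells, at higher median depths of 10343 and 10745 UMIs. These shares were not thinned to 1 depth. T cells with 5 or more IFIT UMIs were 0 of 155 in Early and 12 of 1087 in Advanced PLNs, and 0 of 155 allows a share of up to 2.35%. In monocytes 2 Early cells held 88.4% of the 95 IFIT UMIs.

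High cells were high in nearly the whole module at once. For each member, the cells of a gate were ranked by the share of their UMIs, without thinning, that all the other members held. The level of the member in the highest 5% of cells was set against the rest, so that no gene helped to choose its own cells. Levels were summed over the top cells, so a single top cell need not carry every member. In B cells the top 5% were 378 Early and 289 Advanced cells, while Ifit1 was found in 55 and 62 B cells in all. In B cells all 40 members with at least 30 UMIs were higher in the top 5% in both libraries. Of these 40, 38 in Early and 39 in Advanced PLNs were at least 2-fold higher, against 2.32% of 11717 other genes in Early and 2.32% of 11896 in Advanced B cells. The median member was 3.97-fold and 4.73-fold higher. The members below 2-fold were Samhd1 (1.57 and 1.52) and, in Early PLNs, Stat2 (1.97). The top cells were not deeper: in the ranking for Ifit1 their median was 6353 UMIs in Early and 6912 in Advanced PLNs, against 6590.5 and 7441.5 in the rest.

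The order of the genes by this ratio differed from their order by level. Ifit3 was 90.8-fold (66.7 to 126) higher in the top Early B cells, with 83.0 against 0.91 CPM, and 60.9-fold (47.6 to 78.5) higher in Advanced, with 111 against 1.82 CPM. Rsad2, which encodes viperin, an enzyme that makes a chain-terminating nucleotide, was 50.6-fold and 39.7-fold higher, and Ifit1 45.9-fold and 44.0-fold. Usp18, which removes Isg15 from proteins and blocks the receptor, was 16.9-fold and 23.9-fold higher, Rtp4 16.1-fold and 15.04-fold, Irf7 9.38-fold and 11.6-fold, and Isg15, the ubiquitin-like protein itself, 6.87-fold and 12.0-fold. Of the 3 most abundant members, Ifi27l2a was close to the median member at 3.85-fold and 4.75-fold, and Slfn2 (2.32-fold and 2.34-fold) and Samhd1 were below it. Ifit1, Ifit3 and Rsad2, at the top of this order, and Isg15 carry the motif runs printed above, and so do Bst2 (3.12-fold and 4.04-fold) and Oas3, an enzyme that makes the messenger of the RNase L pathway (5.86-fold and 29.3-fold, from 11 and 43 UMIs in the top cells). Irf7, Ifit2, Oasl2 and Cmpk2 had 0 matches in their windows, and Usp18, Rtp4 and Ifi27l2a were not in the promoter table.

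**Figure D4:**
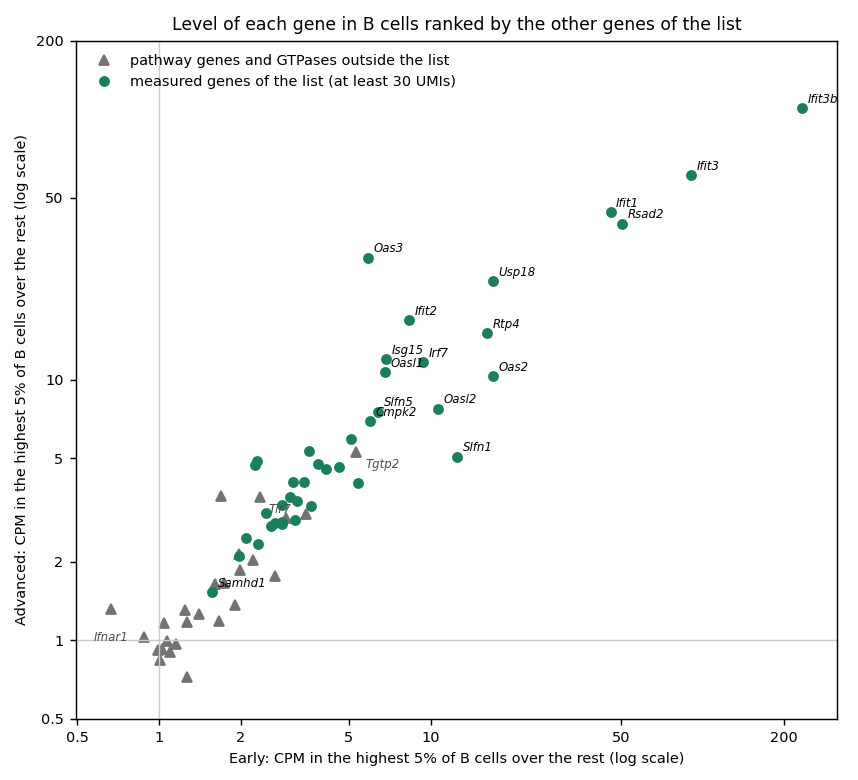
Ratio of the level in the highest 5% of B cells to the level in the rest, Early on the horizontal and Advanced on the vertical axis (both log scales), for each member (green) and for other pathway genes and GTPases that are no members (grey triangles). Members lie above 2 in both libraries except Samhd1 and Stat2, and Ifit3b, Ifit3, Rsad2 and Ifit1 are farthest out.

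Of the GTPases outside the module described at the end, 4 of 11 in Early and 5 of 12 in Advanced PLNs were at least 2-fold higher in the top 5% of B cells, from 0.66 (Gbp8) to 5.32 (Tgtp2) in Early. Irgm1, a GTPase, was 3.48-fold and 3.05-fold higher in the same B cells, Tgtp2 5.32-fold and 5.27-fold, Gbp2 1.40-fold and 1.26-fold, and Tlr7, the sensor of single-stranded RNA, 2.35-fold and 3.56-fold. The receptor and its kinases were not: Ifnar1 stood at 0.88 and 1.02, Ifnar2 at 1.16 and 0.97, Jak1 at 1.07 and 0.99 and Tyk2 at 1.09 and 0.90 of the level in the rest. Among all other genes the largest ratios, chosen after their values were seen, included Sdc3 (21.0 and 14.5), Trim30c (15.5 and 11.4), Lgals3bp (7.87 and 7.74), Ifit1bl1 (6.95 and 12.4) and Rnf213 (3.83 and 4.67).

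In T cells 11 of 23 members in Early and 28 of 35 in Advanced PLNs were at least 2-fold higher in the top 5% (8 and 55 cells), against 11% and 6.78% of other genes. Advanced Ifit1 was 14.6-fold (10.0 to 21.1) and Isg15 9.92-fold (7.88 to 12.4) higher, while Ifi27l2a was 2.73-fold higher in Advanced and 0.86-fold in Early PLNs. In monocytes it was 18 of 21 members in both libraries (6 and 10 cells), against 6.78% and 7.36% of other genes. The highest 1% of B cells came from all subsets but the cycling one, which was only 1.06% of the Early and 1.63% of the Advanced gate. CD23- CD21-low cells were 17.1% and 13.8% of them, against 9.94% and 6.99% of the gate. In those 76 and 58 cells Ifi27l2a made up 26.5% and 28.0% of the module UMIs, at 2120 and 2802 CPM against 241 and 254 CPM in the rest. Ifi27l2a counted in the sum that chose these cells, so part of this gap was set by the choice, unlike in the ranking by the other members above. Of the 11 highest Advanced T cells, 6 were Foxp3+ (54.5%, against 14.4% of the gate), and of the 2 highest Early T cells 0 were (38.1% of the gate), both being activated CD4 cells. In those 2 Early cells Ifi27l2a made up 80.4% of the module UMIs, at 7953 CPM against 848 CPM in the rest. It made up 33.97% in the 11 Advanced cells. The choice of the 2 Early cells thus rested mainly on Ifi27l2a, and they are no measure of the whole module.

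The comparison of Advanced with Early PLNs is given for each gate with the share of all genes that passed the same fold. A member was counted if it had 10 CPM in 1 library and 30 UMIs in both together, and was called higher or lower at a ratio of 1.5. In B cells the summed level differed by little, at a ratio of 1.04 (1.03 to 1.05). All 42 genes were detected, 24 reached the minimum, and 0 were higher and 0 lower by 1.5-fold, against 0.767% and 0.0579% of all 6908 genes. Of the 24, 19 were above 1 and 5 below, where 69.2% of all genes were above 1. The median log2 ratio was 0.09, against 0.06 for all genes. Scaling by TMM (trimmed mean of M values, a factor that centres most genes at no change) turned the direction of the sum, to 0.98. The subsets that stood above this were CD23- CD21-low cells, with 1211 and 1430 CPM and a ratio of 1.18 (1.13 to 1.23), cycling cells at 1.14 (1.08 to 1.21) and CD23+ CD21-low cells at 1.08 (1.05 to 1.098), and the others lay at 1.01 to 1.03. In CD23- CD21-low cells the levels without the highest 1% were 1142 and 1238 CPM.

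The signalling genes had the highest ratio of the groups of roles in B cells apart from IFIT, with 49.7 and 61.4 CPM for Irf7, Irf9, Stat2 and Usp18 together (1.24, 1.18 to 1.30). Irf7 went from 7.21 to 10.6 CPM, a ratio of 1.47 (1.29 to 1.68), and its ratio was above 1 in every one of the 7 subsets, with intervals above 1 in 5. Stat2 had 15.4 and 18.9 CPM (1.22), Irf9 25.0 and 29.2 CPM (1.17), and Usp18, under the minimum, 2.03 and 2.77 CPM (1.36). Xaf1, an apoptosis factor, had 14.99 and 19.04 CPM (1.27), Bst2 31.0 and 38.0 CPM (1.22) and Ifit3, under the minimum, 4.98 and 6.98 CPM (1.40, 1.195 to 1.64). Of the 24 members at the minimum, the lowest ratios belonged to Herc6, the mouse Isg15 ligase, with 12.8 and 10.6 CPM (0.82), and to 3 PYHIN genes, Ifi214 (41.6 and 37.3 CPM, 0.90), Ifi209 (139 and 129 CPM, 0.93) and Ifi208 (36.3 and 34.4 CPM, 0.95). Under the minimum Rsad2 had 1.08 and 0.78 CPM (0.72, 0.47 to 1.09) and Oas1a 2.92 and 2.49 CPM (0.85, 0.67 to 1.08). Without the highest 1% of cells Rsad2 turned in direction, with 0.40 and 0.54 CPM (1.34, 0.74 to 2.45) from 23 and 27 UMIs. Oas1a stayed below 1 (0.82, 0.64 to 1.05) and Ifit3 above it (1.75, 1.37 to 2.25) without those cells.

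In T cells the sum and its members pointed different ways. The sum was lower in Advanced PLNs, with a ratio of 0.86 (0.83 to 0.88), while 8 of the 26 members at the minimum were higher by 1.5-fold and 2 lower, against 6.13% and 23.1% of all 7377 genes. The median log2 ratio of the members was 0.21, against -0.25 for all genes. The T cells of the libraries differed in make-up and in ribosomal protein genes: those genes took 33.7% of Early and 42.8% of Advanced T cell UMIs, and the gate gained CD8 cells with Nkg7 or Ccl5 (32 of 155 and 488 of 1087 cells). TMM scaling raised T cell log2 ratios by 0.25 and gave 13 members higher and 1 lower, and a sum ratio of 1.02. With the mix of subsets held equal the ratio was 1.01.

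A single gene held much of the difference in the sum. Ifi27l2a stood at 924 CPM in Early and 404 CPM in Advanced T cells, a ratio of 0.44 (0.42 to 0.46), and without it the rest of the module had a ratio of 1.18. It was lower in Advanced PLNs in 5 of 6 subsets: 1597 and 970 CPM in activated CD4 cells, 1300 and 1005 in Foxp3+ cells, 757 and 392 in other CD4 cells, 583 and 395 in T cells that met none of the subset rules and 380 and 204 in CD8 cells with Nkg7 or Ccl5. CD8 cells without those genes went the other way, 103 and 446 CPM, from 10 Early cells. The other gene called lower was Isg20, an exonuclease, with 28.1 and 17.6 CPM (0.63, 0.47 to 0.85), followed by Parp9 (25.8 and 18.9 CPM, 0.73) and Slfn5 (35.8 and 28.0 CPM, 0.78).

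The 8 members called higher in Advanced T cells held 4 of the 6 PYHIN genes. Ifi206 had 32.6 and 75.4 CPM (2.31, 1.82 to 2.98), Ifi213 14.9 and 31.1 CPM (2.08), Ifi214 16.7 and 32.0 CPM (1.91) and Ifi208 31.7 and 51.4 CPM (1.62). All 4 are also B cell genes, and at the Cd79b share of B cell RNA above, B cells would bring 1.83 and 2.96 CPM of Ifi206 into the T cell gate. Slfn1, a Schlafen gene of thymocytes and T cells, had 46.6 and 93.6 CPM (2.01, 1.64 to 2.48), against 24.0 and 13.5 CPM in monocytes and 0.75 and 1.07 CPM in B cells. By subset Slfn1 was higher in Advanced Foxp3+ cells (28.9 and 59.95 CPM) and in T cells of no named subset (29.0 and 111 CPM), while in CD8 cells with Nkg7 or Ccl5 it had 76.1 and 89.8 CPM with overlapping intervals. Signalling genes and Isg15 made up the other 3: Irf7 12.2 and 21.9 CPM (1.795), Irf9 15.4 and 26.2 CPM (1.70) and Isg15 16.3 and 27.9 CPM (1.71, 1.21 to 2.48). Under the minimum, Ifit3 (6 Early and 120 Advanced UMIs), Ifit1 (7 and 125) and Usp18 (7 and 123) had ratios of 3.51 (1.57 to 9.76), 3.14 (1.48 to 7.96) and 3.09 (1.45 to 7.84), while Ifit2, which reached the minimum, stood at 0.86 (0.56 to 1.36). Oasl2 had 3 and 57 UMIs, Rsad2 1 and 17, and Zbp1, a sensor of left-handed nucleic acid, 43.5 and 43.2 CPM.

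**Figure D5:**
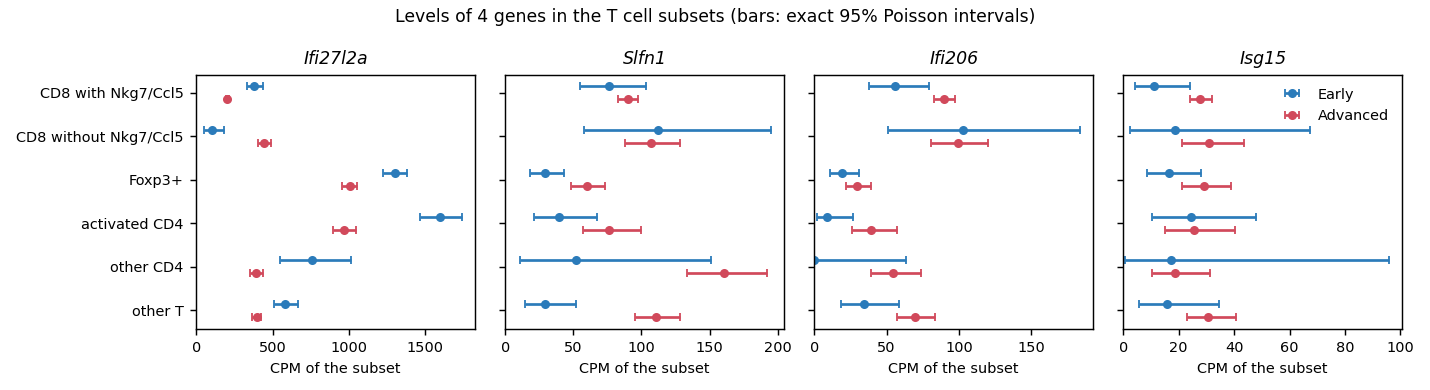
Level (CPM, horizontal axis) of Ifi27l2a, Slfn1, Ifi206 and Isg15, 1 panel each, in the 6 T cell subsets (vertical axis) in Early and Advanced PLNs, with 95% counting intervals. Ifi27l2a is lower in Advanced PLNs in 5 subsets, and the Slfn1 intervals of Early and Advanced Foxp3+ cells do not meet.

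In monocytes the module was lower in Advanced PLNs at a ratio of 0.78 (0.74 to 0.82), and 1 of 34 members was higher and 11 lower by 1.5-fold, against 10.8% and 4.48% of all 7543 genes. Of the 34, 6 were above 1 and 28 below, where 55.2% of all genes were above 1. The median log2 ratio was -0.33, against 0.04 for all genes. Ifit1 had 29.4 and 4.48 CPM (0.15, 0.06 to 0.32), Ifit3 27.8 and 6.48 CPM (0.23), Rsad2 20.9 and 6.48 CPM (0.31) and Isg15 31.7 and 12.5 CPM (0.39, 0.23 to 0.66). Few cells carried these values. A single cell held 86.8% of the Early Ifit1 UMIs, 77.8% of Ifit3, 68.3% of Isg15 and 48.1% of Rsad2. Without the highest 1% of cells Ifit1 had 3.94 and 4.03 CPM, Isg15 10.3 and 10.1 CPM, Ifit3 6.31 and 2.52 CPM (0.40, 0.10 to 1.38) and Rsad2 11.04 and 6.04 CPM (0.55, 0.23 to 1.27), and 1 member in place of 11 was at the minimum and lower. Ifi27l2a stayed below 1 without them, with 388 and 264 CPM (0.68, 0.60 to 0.77) against 456 and 297 CPM with them, and so did Samhd1 (527 and 454 CPM, 0.86). The gene called higher was Stat2 (13.9 and 24.4 CPM, 1.75, 1.00 to 3.20), and next were Eif2ak2, the kinase PKR (23.2 and 28.9 CPM, 1.25), Bst2 (45.6 and 49.8 CPM, 1.09) and Dhx58, an RNA sensor (11.6 and 12.5 CPM, 1.07), each with an interval that held 1.

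In dendritic cells 1 of 23 members was higher and 8 lower, against 9.19% and 8.3% of all 7244 genes, and the sum ratio was 0.88 (0.83 to 0.94). Without the highest 1% of cells, 1 in each library, it was 0.98, and 4 were lower. Rsad2 had 27.1 and 8.14 CPM (0.30), Ifi204 20.3 and 6.62 CPM (0.33), Ifit2 34.9 and 14.8 CPM (0.42) and Trim30a 81.3 and 43.8 CPM (0.54), but 1 cell held 85.7% of the Early Rsad2 UMIs, 71.4% and 92.3% of those of Ifi204 and 97.2% and 86.2% of those of Ifit2. Without the highest cell of either library Rsad2 had 3.97 and 5.18 CPM, a ratio of 1.30 (0.38 to 5.69), from 4 and 10 UMIs. Isg15, the gene called higher, had 25.2 and 42.7 CPM (1.70), again with 50% and 75% in 1 cell, and 12.9 and 10.9 CPM without them. Trim30a (65.6 and 36.8 CPM, 0.56) and Ifi27l2a (95.4 and 46.1 CPM, 0.48, 0.36 to 0.65) were lower and Bst2 (189 and 243 CPM, 1.29) and Samhd1 (173 and 237 CPM, 1.37, 1.15 to 1.64) higher without those cells, with intervals that did not hold 1. Stat2 (17.4 and 22.4 CPM, 1.28) and Irf9 (26.1 and 33.1 CPM, 1.27) had intervals that did. The mix changed too, from 33 of 54 to 72 of 97 cells with Fscn1 or Ccl22, and within these the ratio was 1.14 (1.02 to 1.27).

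In plasmacytoid cells 0 of 17 members were higher and 6 lower, against 12.4% and 7.65% of all 4352 genes, and the sum ratio was 0.89 (0.85 to 0.94). Isg15 had 132 and 35.5 CPM (0.27, 0.16 to 0.45), and 86.8 and 25.6 CPM (0.30, 0.15 to 0.54) once the highest cell in either library was left out. Slfn5 (98.96 and 54.1 CPM, 0.55), Ifi209 (84.5 and 49.0 CPM, 0.58) and Stat2 (84.5 and 50.7 CPM, 0.60) were also called lower, and without that cell their intervals held 1. Bst2 (0.94) and Irf7 (0.96) had intervals that held 1 with all cells, as did the 3 members above 1, Ifi47 (80.4 and 99.7 CPM, 1.24), Irf9 (55.7 and 64.2 CPM, 1.15) and Ifi27l2a (1.14). The IFIT genes together had 13 UMIs in Early and 2 in Advanced plasmacytoid cells. With 34 and 37 cells these values carry little depth, and 30 Early and 88 Advanced cells with plasmacytoid genes had been taken by the lymphoid precursor gate, for their Dntt or Rag1 UMIs. Not all of them met the B, T and myeloid limits of the plasmacytoid gate. Taking that gate before the precursor gate gave 60 and 90 cells, 5969 and 4746 CPM, and 10 members lower.

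Of the ligands, Ifnb1 and the 13 Ifna genes listed had 0 UMIs in all 5 gates of both libraries. A count of 0 allows up to 0.0521 CPM for each in Early and 0.0597 CPM in Advanced B cells, but up to 6.19 and 5.07 CPM in plasmacytoid cells, so a low level there was not detectable at this depth. Ifna genes are near-identical copies without introns, which reads may not tell apart. Ifng had 17.7 and 10.6 CPM in T cells. Irf8, the factor of dendritic and plasmacytoid identity, had 2264 and 2159 CPM in plasmacytoid cells, and Tlr7 116 and 88 CPM there against 118 and 117 CPM in monocytes.

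The guanylate-binding and immunity-related GTPases, a list of 14 genes that answer chiefly to Ifng, were compared as the nearest set outside the module. All 9 of them in the promoter table also held the motif. In T cells 13 reached the minimum, and 5 were higher and 2 lower by 1.5-fold, against 6.13% and 23.1% of all genes. Their median log2 ratio was 0.50, above the 0.21 of the module and the -0.25 of all genes. In B cells 6 of 6 were above 1, where 69.2% of all genes were, with 0 past the fold and a median of 0.15 against 0.06 for all genes. In monocytes 1 of 7 was higher and 3 lower, against 10.8% and 4.48% of all genes, with a median of -0.57. In dendritic cells it was 0 and 1 of 7, against 9.19% and 8.3%, with a median of -0.03. In plasmacytoid cells it was 0 and 1 of 2, against 12.4% and 7.65%. Iigp1 had 34.9 and 1.53 CPM in dendritic cells, from 54 and 97 cells. In that gate 1 Early cell held 27.9% of the module UMIs, and its part in the Iigp1 value is not given here.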

How the data were processed

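PLN cells were profiled with 10x Genomics 3′ chemistry, and the authors deposited raw UMI counts as filtered gene-by-cell matrices made with Cell Ranger against mm10. Version 6.0.1 is in the file header, and versions 3.1 and 3.1.0, with Seurat 4.0.3, are in the submitters' processing notes. The 43 members, the compared lists and the gates were chosen with earlier results of these data known, and 1 member (Mx1) was not analysed here. The Early library held 67610110 UMIs in 8242 barcodes and the Advanced library 83148059 in 8201.

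Cells with at least 200 genes were kept (21 Early and 18 Advanced barcodes left out). Gates required 5 UMIs of B cell genes that included Cd79a and Ms4a1 (B) or 3 of Cd3d, Cd3e and Cd3g (T), of Csf1r, Adgre4, Ace, Clec4a1 and Fcgr1 (monocyte), of Zbtb46, Xcr1, Clec9a, Cd209a, Fscn1 and Ccl22 (dendritic) or of Siglech, Klk1 and Cox6a2 (plasmacytoid), with at most 2 UMIs of other lineages, or at most 5 of the B genes. Monocyte, dendritic and plasmacytoid cells needed 2 times the UMIs of the other myeloid lists, and lymphoid precursors (3 UMIs of Vpreb1, Igll1, Dntt and Rag1) and plasma cells were taken first. A minimum of 3 Cr2 UMIs counted as CD21-high. No doublet caller was run, since the gates refuse mixed cells.

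UMIs were summed over cells, with no division by transcript length because a UMI tags 1 end of a transcript. Intervals were exact Poisson for levels, exact conditional binomial for ratios and Clopper-Pearson for shares, and a count of 0 was read as a limit of 3 counts. For levels and shares, the highest 1% of cells in a gate were those with the largest share of module UMIs, without thinning, ranked by stage. For the variance over the mean they were the cells with the most module UMIs after thinning. Named in the text were the 4 members with the highest level and, at the minimum, the 4 highest and 4 lowest ratios in each gate, and a fixed list. The code was tested on simulated data. Python 3.11.15 with numpy 2.4.6, scipy 1.17.1 and pandas 2.3.3 was used, and edgeR 4.0.16 in R 4.3.3 for TMM factors. Alternatives were 1000 UMIs in thinning, no minimum CPM, a fold of 2, stricter gates, equal weight per cell, other totals, TMM, no highest 1% or 5% of cells, no 3 most abundant members and a fixed subset mix.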

Additional observations from a re-analysis of the deposited data

How the results depend on the processing

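No paired analysis was possible because each stage was 1 library. Analysing all deposited barcodes gave the same values. The summed level in Advanced over Early PLNs, reported above as 1.04 in B cells, became 1.02 without the highest 5% of cells, 1.05 with cells weighted equally, 1.06 with stricter gates and, turned in direction, 0.98 with TMM factors. In T cells (0.86) it became 0.78 with cells weighted equally, and it turned to 1.01 with totals free of immunoglobulin, ribosomal protein and mitochondrial genes, 1.02 with TMM factors, 1.27 without the 3 most abundant members, 1.01 with the subset mix held equal and 1.18 without Ifi27l2a. In monocytes (0.78) it was 0.88 and 0.87 without the highest 1% and 5% of cells, 0.83 with equal weight and 0.85 with stricter gates. In dendritic cells (0.88) it was 0.98 without the highest 1% and 0.72 without the 3 most abundant members, and it turned to 1.001 without the highest 5%, 1.08 with stricter gates and 1.06 with the subset mix held equal. In plasmacytoid cells (0.89) it was 0.95 without the highest 5%, 0.67 without the 3 most abundant members, 0.80 with the plasmacytoid gate taken before the precursor gate and 0.82 without Bst2, and it turned to 1.02 with equal weight and 1.01 with stricter gates. The subset mix could not be held equal in monocytes, for 6 Early cells in a subset, or in plasmacytoid cells, which had no subsets. The settings without Ifi27l2a or Bst2 and with the plasmacytoid gate first were chosen after seeing the data.

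Members higher by the fold were 2 without a minimum CPM and 1 with stricter gates in B cells (0), 3 at a fold of 2, 13 without a minimum CPM and 13 with TMM in T cells (8), 0 at a fold of 2 and 3 without the highest 1% in monocytes (1), and 0 at a fold of 2 and 5 with stricter gates in dendritic cells (1). Members lower were 1 at a fold of 2 and 1 with TMM in T cells (2), 4 at a fold of 2 and 1 without the highest 1% in monocytes (11), 3 and 4 in dendritic cells (8), and 1, 3 and, with the plasmacytoid gate first, 10 in plasmacytoid cells (6). Other settings left these counts within 1.5 times.

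The variance over the mean falls by construction when cells are thinned further or their highest are left out. Thinned to 1000 UMIs it was 1.74 and 2.27 in Early and Advanced B cells, 1.63 and 1.73 in T cells, 4.83 and 1.93 in monocytes, 2.78 and 1.41 in dendritic cells and 2.51 and 3.03 in plasmacytoid cells. Without the highest 1% of cells it was 1.62 and 1.86, 2.82 and 2.04, 2.59 and 3.71, 1.57 and 1.67, and 2.87 and 3.07, in the same order. Without the 3 most abundant members it was 2.04 and 3.20, 1.59 and 1.79, 9.54 and 3.08, 8.22 and 4.47, and 6.34 and 3.67. B cells were higher in Advanced than Early PLNs in all 3 settings, and each of the other 4 gates changed order in at least 1. Depth limits what can be said of dendritic and plasmacytoid cells, with under 100 cells in each library.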
